A study of Mus musculus with 8 samples.

Results

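Expression in the second of 2 mouse embryonic stem cell lines lacking a poised enhancer of Lhx5 was compared with expression in wild-type (WT) cells, after both had been turned into anterior neural progenitors. The comparison took the 2 clone 2 libraries (labelled PE Lhx5(-109)-/- Clon2) and the 4 WT (E14) libraries, and it covered every gene with a mean of at least 1 FPKM over these 6 libraries, which was 14430 of the 46406 genes in the table. FPKM is the number of fragments scaled to gene length and to the mapped fragments of the library. E14 is an established mouse embryonic stem cell line, and clone 2 is 1 clonal line grown from E14 cells in which CRISPR-Cas9 with a pair of guide RNAs had cut out the enhancer. The cells of all 6 samples were kept in N2B27 medium without serum, with 10 ng/ml bFgf for 3 days and with 5 μM Xav939, a WNT inhibitor, from day 2 to day 5. Because the WT cells carry no clone label, a difference caused by the deletion cannot be told apart from one that arose when the clone was derived. The labels number the samples without saying whether they came from separate cultures, so the p-values measure only the spread between these libraries, which may be technical. A second deletion line, clone 1, with 2 libraries, is used only where it is named.

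Lhx5 encodes a homeodomain protein with LIM domains that regulates transcription in the embryonic forebrain. A poised enhancer is a regulatory element that carries repressive Polycomb marks in stem cells and becomes active when neural genes are switched on. Anterior neural tissue is held apart from midbrain and hindbrain tissue by low WNT signalling, and the midbrain-hindbrain boundary is a known source of WNT1 and FGF8.

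The 6 libraries were alike in their totals. FPKM values summed to between 518491 and 528726, and the spacing of low values gave depths of 1.04 to 1.2 times that of WT replicate 1. Genes are not independent replicates; over them, log2(FPKM + 1) correlated between pairs of WT libraries at 0.952 to 0.958, between the clone 2 libraries at 0.955 and between clone 2 and WT at 0.94 to 0.953. Sox2 stood at 131, 140, 139 and 129 FPKM in WT and at 123 and 119 FPKM in clone 2, and Otx2 at 200, 220, 210 and 196 FPKM against 173 and 159 FPKM. Other anterior neural progenitor markers were less alike. Mean FPKM in WT and clone 2 was 26.6 and 4.41 for Hesx1, 38.6 and 14.5 for Pax6, and 11.5 and 5.41 for Lhx2. The difference in log2(FPKM + 1) was -1.28 for Six3, -0.09 for Sox3, 0.31 for Sox1, 0.38 for Nes and 0.33 for Cdh2. Genes of other cell types were low or differed as sums by group. Of 23 mesoderm genes 21 were below 1 FPKM in all 6 libraries, and so were 16 of 19 endoderm genes. Summed epithelial and surface ectoderm genes reached 84.9 to 122 FPKM in WT and 89.1 and 66.0 FPKM in clone 2, summed pluripotency and epiblast genes 764 to 828 FPKM against 686 and 647 FPKM, and summed neural crest genes 66.2 to 71.3 FPKM against 62.9 and 58.0 FPKM. Both clone 2 libraries lay below the whole WT range in the pluripotency and the neural crest sums, and replicate 2 did so in the epithelial sum. Summed proneural and early neuron genes were also below it, at 181 and 172 FPKM against 195 to 204 FPKM. Summed neural progenitor and radial glial genes were above it, at 998 and 1060 FPKM against 956 to 982 FPKM. Replicate 1 exceeded WT in the mesoderm sum (13.6 against at most 12.8 FPKM) and replicate 2 in the endoderm sum (63.7 against at most 59.7 FPKM). The pluripotency sum includes Otx2 and Sox2. The crest sum includes Sox9, which is also counted with the neural progenitor genes and had means of 37.8 FPKM in WT and 28.0 FPKM in clone 2. Pax3 and Pax7 of the crest list were higher in clone 2. Of 11 tested crest genes, 5 had positive and 6 negative log2 differences. The part of other cell types in the results was not tested, and in such bulk samples fewer cells of a type cannot be told apart from less RNA per cell.

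Lhx5 was low in both clone 2 libraries. It stood at 16.9, 17.5, 16.2 and 15.0 FPKM in WT and at 1.90 and 1.26 FPKM in clone 2. The groups lay far apart, with a mean of 16.4 ± 1.05 FPKM (SD, n = 4) in WT and 1.58 ± 0.448 FPKM (SD, n = 2) in clone 2. On the log2(FPKM + 1) scale used for every log2 difference here, Lhx5 fell by 2.76 (SE 0.11, limma adjusted p = 8.61e-05). By exact permutation of the libraries (two-sided), p was 0.0667, which is as low as 15 arrangements can reach.

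Many genes differed between clone 2 and WT, most of them by a small amount. In limma, 2402 of 14430 genes passed an adjusted p of 0.05, which is 16.6 percent. Of them 1276 were higher (8.84 percent of all tested) and 1126 lower (7.8 percent) in clone 2. The counts given for gene lists below are to be read beside these shares. The median size of the called log2 differences was 0.33, and 100 of the called genes reached a difference of at least 1, with 51 higher and 49 lower. The clone 2 libraries lay wholly outside the WT libraries for all 2402 called genes, against 47.6 percent of all genes tested. Clone 2 replicate 2 lay farther from WT than replicate 1 in 84.6 percent of the higher and 84.8 percent of the lower genes, and WT replicate 2 was the WT library farthest from clone 2 in 60.6 and 71.8 percent. The counts rested on single libraries: without clone 2 replicate 2, 70 genes were higher and 60 lower (0.901 percent of those tested), of which 92 were among the 2402. Without WT replicate 4 the counts were 150 and 126, without WT replicate 3 they were 241 and 199, and without WT replicate 1 they were 828 and 759. In each of 12 alternative fits (other pseudocounts, scaling, limma options, no filter, all 8 libraries, and each library left out) 77 genes passed, 33 higher and 44 lower; the replicate block, which leaves 1 higher and 6 lower genes, is not among the 12. The 44 lower genes include many of the chromosome 4 stretch described further on, among them Rab2a, Chd7, Ints8, Pnisr and Mms22l. They also include the Y-linked Eif2s3y, Ddx3y and Uty, and Ktn1 and Mir8094, which are listed at 0 in clone 2. The 33 higher genes include Gm25776, listed at 0 in WT. Of the tested genes, 139 had a WT mean below 1 FPKM and so reached the level for testing only through clone 2, and 29 of them were among the higher genes; 79 of the lower genes had a clone 2 mean below 1 FPKM and reached it only through WT.

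**Figure D1:**
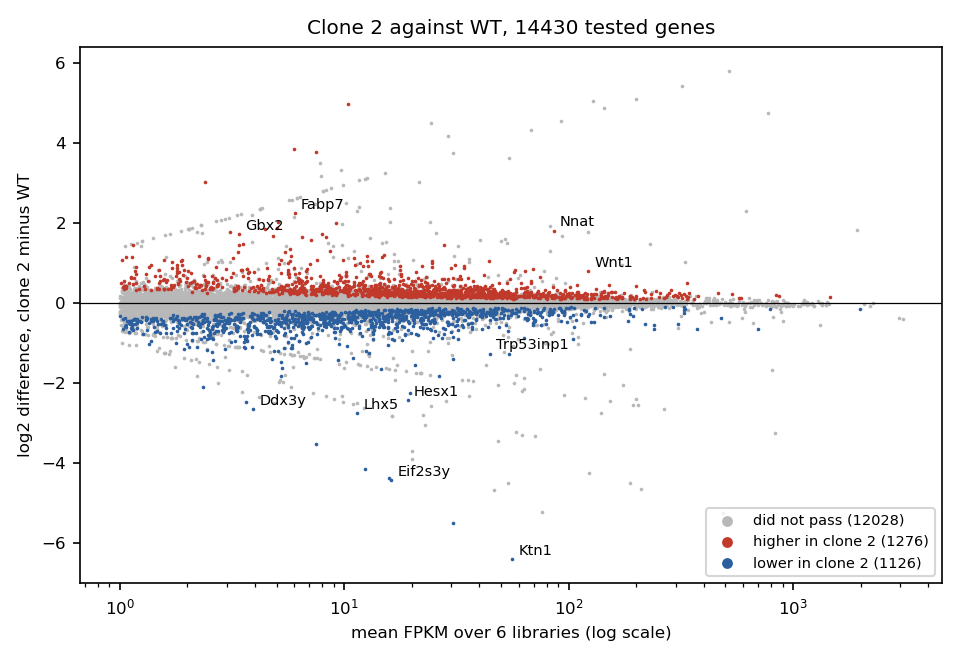
Difference between clone 2 and WT (vertical axis, log2 of FPKM + 1) against mean FPKM over the 6 libraries (horizontal axis, log scale) for the 14430 genes tested; red points were called higher (1276), blue lower (1126) and grey points did not pass. Called differences cluster near 0, and Lhx5, the Y-linked Eif2s3y and Ddx3y, and Nnat stand out; Ktn1 is listed at 0 in both clone 2 libraries.

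Genes of the midbrain and hindbrain were higher in clone 2. Of 14 tested, 10 rose and 0 fell, with a median log2 difference of 0.80 beside 0.0015 over all genes. Gbx2, a homeobox gene of the anterior hindbrain, was at 1.59, 0.938, 1.49 and 1.96 FPKM in WT and at 6.28 and 8.18 FPKM in clone 2 (log2 difference 1.73, limma adjusted p = 0.00776). Wnt1 was at 104, 85, 101 and 102 FPKM in WT and at 165 and 177 FPKM in clone 2 (0.80, adjusted p = 0.0098). En1, an engrailed homeobox gene of the midbrain-hindbrain region, went from 34.8, 25.6, 32.9 and 35.9 FPKM to 62.6 and 73.7 FPKM (1.06, adjusted p = 0.0179). WT replicate 2 was the lowest WT library for all of these genes. The clone 2 libraries lay above all 4 WT libraries, as for every gene called higher. Fgf8, the boundary ligand, rose 4.17 times, from 2.34 ± 0.761 to 9.75 ± 3.91 FPKM. Of the 10, Fgf18 and Pax8 reached the level for testing only through clone 2. Pax2, which marks the same region, was not called (log2 difference 0.07). Without clone 2 replicate 2, 0 of the 10 passed, and 4 passed without WT replicate 3 or WT replicate 4; without clone 2 replicate 2 the adjusted p was 0.0531 for Gbx2 and 0.0708 for Wnt1.

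Forebrain and eye field transcription factors were lower. Of 14 tested, 8 fell and 0 rose, with a median log2 difference of -0.72. Hesx1, a repressor needed for forebrain formation, was at 21.7, 36.7, 24.1 and 24.0 FPKM in WT and at 6.39 and 2.43 FPKM in clone 2 (log2 difference -2.43, limma adjusted p = 0.028). Pax6, a master regulator of the eye, was at 38.8, 39.7, 39.8 and 36.2 FPKM in WT and at 17.8 and 11.1 FPKM in clone 2 (-1.39, adjusted p = 0.0153). Rax, an eye field homeobox gene, went from 6.10, 8.54, 7.78 and 6.29 FPKM to 2.15 and 0.668 FPKM (-1.82, adjusted p = 0.0192). In each of these genes clone 2 replicate 2 was the lowest library of the 6. Fezf1, Fezf2, Lhx2, Otx2 and Emx2 also fell, whereas Six3 had a log2 difference of -1.28 and an adjusted p = 0.0736, and Otx1 one of 0.56 without a call. Without WT replicate 3 or WT replicate 4, 0 of the 8 passed, and 4 passed without clone 2 replicate 2, 4 without WT replicate 2 and 3 without WT replicate 1; the adjusted p of Pax6 reached 0.0513 and that of Rax 0.0559 over these fits.

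LIM factors and their cofactors changed in both directions, and 7 of 11 tested members were not called. Lmx1b and Ldb2 are described because they were called, so they do not speak for the list. Lmx1b, a LIM homeobox gene of the roof plate and isthmus, was at 28.4, 27.3, 25.8 and 28.0 FPKM in WT and at 42.3 and 41.2 FPKM in clone 2 (log2 difference 0.59, limma adjusted p = 0.00315). Ldb2, a LIM domain binding cofactor, was at 2.10, 1.89, 1.68 and 1.62 FPKM in WT and at 0.421 and 0.366 FPKM in clone 2 (-1.01, adjusted p = 0.00614). Ldb2 reached the level for testing only through WT. Both genes were separated from WT by more than the WT libraries differed among themselves, and both passed without each library in turn, with adjusted p-values of at most 0.0193 and 0.0441. Among 11 tested members 1 rose and 3 fell (36.4 percent called, beside 16.6 percent of all genes). The 3 that fell were Lhx5 itself, Ldb2 and Lhx2. Of these, Lhx2 failed without WT replicate 1, 2, 3 or 4.

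**Figure D2:**
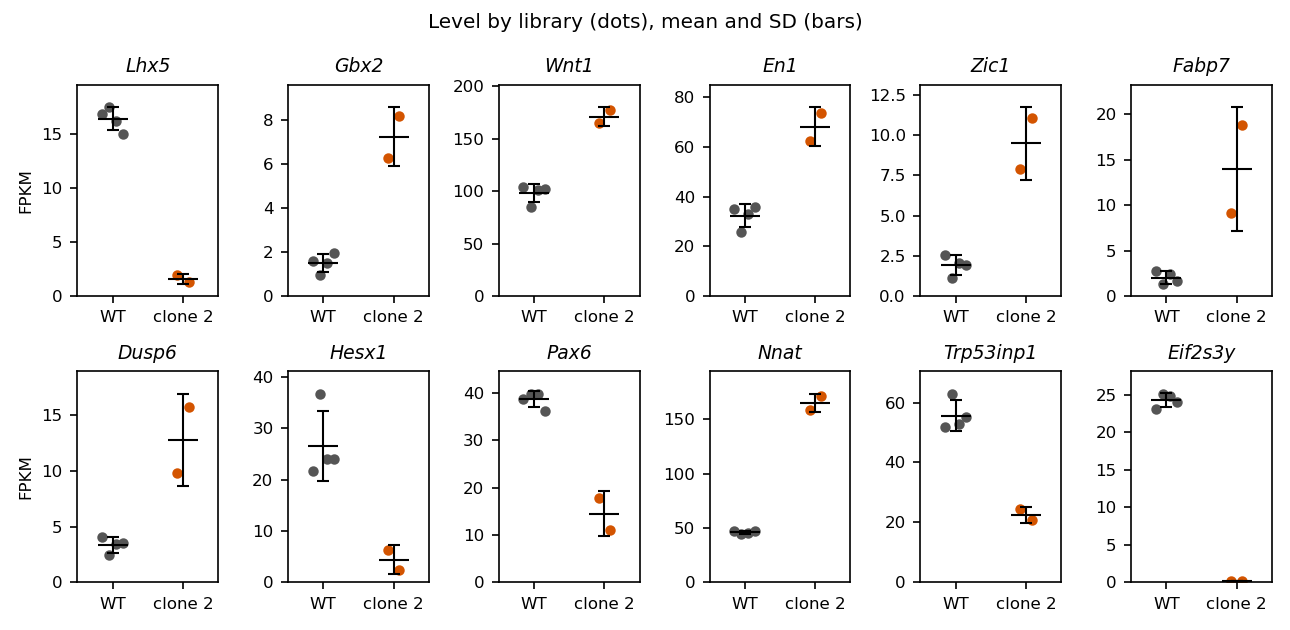
FPKM (vertical axes, each starting at 0) of 12 genes in the 4 WT (grey) and 2 clone 2 (orange) libraries, with the mean and SD as black bars. In every panel the clone 2 dots lie on one side of all WT dots, as they do for every called gene. Fabp7 and Dusp6 show the wider gap between the clone 2 libraries (9.18 and 18.8 FPKM, 9.82 and 15.7 FPKM).

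The feedback genes of the FGF-ERK pathway formed the group with the largest share of called members among lists of at least 9 tested genes. FGF receptors signal through the kinase ERK, which switches on ETS transcription factors and a set of inhibitors that damp the pathway. Of 19 tested genes, 13 rose and 1 fell, with a median log2 difference of 0.51. Among the ETS factors, Etv5 was at 2.83, 0.986, 1.96 and 2.13 FPKM in WT and at 7.93 and 14.7 FPKM in clone 2 (log2 difference 2.03, limma adjusted p = 0.0241). Etv4 was at 0.778, 0.234, 0.465 and 0.399 FPKM against 1.82 and 2.73 FPKM (1.15, adjusted p = 0.0162), and Etv1 rose 2.32 times. Etv4 reached the level for testing only through clone 2. Clone 2 replicate 2 was the highest library for these 3 genes, and WT replicate 2 the lowest.

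Among the inhibitors, Dusp6, an ERK phosphatase, was at 4.05, 2.41, 3.41 and 3.52 FPKM in WT and at 9.82 and 15.7 FPKM in clone 2 (log2 difference 1.64, limma adjusted p = 0.0138). Spry2, a Sprouty inhibitor of receptor signalling, was at 4.72, 3.06, 4.05 and 4.02 FPKM against 11.5 and 20.4 FPKM (1.73, adjusted p = 0.0171). Il17rd, also called Sef, an inhibitor at the membrane, was at 5.15, 2.77, 4.04 and 3.95 FPKM against 12.99 and 26.2 FPKM (1.99, adjusted p = 0.025). Dusp5, Spry1, Spred1, Spred2, Spred3, Flrt3 and Fgfrl1 rose as well, by 0.34 (Fgfrl1) to 1.66 (Spred3) on the log2 scale. The receptors went the other way or did not pass: Fgfr2 fell from 81.9, 98.5, 82.4 and 83.2 FPKM to 67.6 and 60.6 FPKM (-0.42, adjusted p = 0.0272), and Fgfr1 (-0.14) and Fgfr3 (-0.18) were not called. Of the 14 called, 1 passed without clone 2 replicate 2, 3 without WT replicate 4 and 5 without WT replicate 3. Without clone 2 replicate 2 the 1 that passed was Spry2, which failed when WT replicate 3 or WT replicate 4 was left out (adjusted p up to 0.0575).

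WNT ligands were also higher, a group formed by gene name after the values had been seen. Of 9 tested Wnt genes 7 rose, 0 fell and 9 had positive differences, with a median log2 difference of 0.74; 0 passed without clone 2 replicate 2. Wnt3a, a canonical ligand of the dorsal midline, was at 3.89, 2.32, 3.79 and 3.92 FPKM in WT and at 11.1 and 9.63 FPKM in clone 2 (1.35, limma adjusted p = 0.0121; 0.0764 without clone 2 replicate 2). Wnt4 was at 1.47, 1.29, 1.25 and 1.15 FPKM against 2.64 and 3.02 FPKM (0.74, adjusted p = 0.0114). Rspo2, a secreted amplifier of WNT signalling, was at 1.91, 0.569, 1.25 and 1.41 FPKM against 5.13 and 8.43 FPKM (1.77, adjusted p = 0.0196; 0.126 at most in the leave-one-out fits, failing in the fits that lacked WT replicate 3, WT replicate 4 and clone 2 replicate 2).

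Genes switched on by WNT signalling gave a weaker pattern. Of 12 feedback targets 5 rose and 2 fell, with a median log2 difference of 0.15. Axin2, a negative regulator of beta-catenin and a standard readout of the pathway, was at 42.4, 36.3, 41.6 and 41.5 FPKM in WT and at 53.4 and 57.7 FPKM in clone 2 (0.45, limma adjusted p = 0.0167). Sp5, a transcription factor induced by WNT, was at 3.46, 2.03, 2.76 and 3.24 FPKM against 5.201 and 5.69 FPKM (0.75, adjusted p = 0.0272). The clone 2 libraries lay above WT for both genes, as for every gene called higher. Without WT replicate 4, however, 0 of the 7 called targets passed, and 1 passed without WT replicate 3. The number was 4 without WT replicate 1 and 4 without WT replicate 2. Of 11 WNT antagonists 2 rose and 5 fell. Frzb, a secreted WNT binder, fell from 19.9, 19.2, 19.2 and 18.7 FPKM to 11.4 and 12.8 FPKM (-0.63, adjusted p = 0.00426), and Apcdd1, a membrane WNT inhibitor, rose from 23.4, 22.5, 23.7 and 23.2 FPKM to 40.5 and 46.3 FPKM (0.87, adjusted p = 0.00137). Frzb and Apcdd1 passed in every leave-one-out fit and went in opposite directions; of the 7 called antagonists, 2 passed without clone 2 replicate 2, 3 without WT replicate 4 and 4 without WT replicate 3.

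The promoter of Sp5 is shown because it was the 1 promoter among 9 matched WNT feedback targets that holds the TCF/LEF motif CTTTGAT. The 250 bases before its start, from the RefSeq promoter table (build GRCm38.p6, chr2:70474673-70474922, plus strand, outside the transcribed part), are printed 5′ to 3′ with the motif in capitals, beginning 104 bases before the start. Of 9538 tested genes with a promoter in the table, 2.26 percent hold the motif on either strand.
Sp5: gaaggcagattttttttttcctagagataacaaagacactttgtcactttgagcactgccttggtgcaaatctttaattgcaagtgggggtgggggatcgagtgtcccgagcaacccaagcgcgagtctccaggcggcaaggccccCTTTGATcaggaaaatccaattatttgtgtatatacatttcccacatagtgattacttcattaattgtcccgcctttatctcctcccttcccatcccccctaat

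Progenitor genes shifted in both directions. Of 28 neural progenitor and radial glial genes 9 rose and 2 fell, with a median log2 difference of 0.14. Fabp7, the fatty acid binding protein of radial glia, was at 2.76, 1.30, 2.39 and 1.66 FPKM in WT and at 9.18 and 18.8 FPKM in clone 2 (log2 difference 2.26, limma adjusted p = 0.0204). Zic1, a zinc finger gene of the dorsal neural tube, was at 2.56, 1.09, 2.07 and 1.92 FPKM against 7.90 and 11.1 FPKM (1.86, adjusted p = 0.0117), while its relatives Zic2 (-0.27) and Zic5 (-0.57) were not called. Vim, encoding vimentin, rose from 33.5, 36.0, 35.4 and 35.2 FPKM to 44.6 and 49.7 FPKM (0.42, adjusted p = 0.0117). Sox9 and Sox4, SOX transcription factors, fell by 0.42 and 0.38 on the log2 scale. Without clone 2 replicate 2, 0 of the 11 passed, and without WT replicate 3 or WT replicate 4 it was 4.

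Early neuronal genes were split. The growth cone gene Gap43 went from 17.9, 21.2, 18.2 and 17.9 FPKM to 12.6 and 9.24 FPKM (-0.75, adjusted p = 0.0185; up to 0.093 in the leave-one-out fits). Together 2 of 14 tested neuronal genes rose, 1 of which reached the level for testing only through clone 2, and 4 fell; 0 passed without clone 2 replicate 2, 1 passed without WT replicate 3 or WT replicate 4, and 3 passed without clone 2 replicate 1. Pax7, a dorsal neural tube and crest gene, rose from 1.05, 0.773, 0.794 and 0.920 FPKM to 2.62 and 3.30 FPKM (1.07, adjusted p = 0.00722); it passed in every leave-one-out fit, but reached the level for testing only through clone 2. BMP response genes rose in 5 of 13 cases and fell in 0; 1 of the 5, Msx3, reached the level for testing only through clone 2. Their members Id2, at 37.5, 40.0, 38.4 and 37.2 FPKM against 50.5 and 50.4 FPKM, and Id3, at 91.3, 89.9, 95.2 and 90.6 FPKM against 123 and 119 FPKM, are inhibitors of proneural factors. Id2 (0.39, adjusted p = 0.00679) and Id3 (0.40, adjusted p = 0.00356) were the members that passed without clone 2 replicate 2 and without WT replicate 4, and 3 passed without WT replicate 3. No Hox gene reached the level for testing, 0 of 24.

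Genes of cholesterol synthesis and uptake were lower in clone 2 along the whole pathway. Cells make cholesterol from acetyl-CoA through mevalonate and squalene, under control of the transcription factor SREBP2, which is released when sterols are scarce. Of 24 tested genes 17 fell, 0 rose and 22 had negative differences, with a median log2 difference of -0.30. At the entry to the pathway, Hmgcs1, which makes HMG-CoA, was at 321, 369, 334 and 347 FPKM in WT and at 253 and 223 FPKM in clone 2 (-0.52, limma adjusted p = 0.0124). Both clone 2 values lay below all WT values, as for every gene called lower, and WT replicate 2 was the highest library.

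Further along, Fdps, which makes farnesyl diphosphate, was at 254, 292, 253 and 271 FPKM in WT and at 197 and 169 FPKM in clone 2 (log2 difference -0.55, limma adjusted p = 0.0171). Lss, which closes the sterol rings, was at 48.9, 59.7, 56.9 and 56.1 FPKM against 39.2 and 33.7 FPKM (-0.59, adjusted p = 0.0171). Dhcr7, which acts at the end of the pathway, was at 84.2, 90.7, 86.4 and 90.9 FPKM against 63.6 and 58.5 FPKM (-0.52, adjusted p = 0.00545). Of the regulators, Insig1, which retains SREBP in the endoplasmic reticulum, was at 74.0, 79.1, 76.8 and 78.6 FPKM against 56.3 and 51.4 FPKM (-0.51, adjusted p = 0.005). Srebf2, encoding SREBP2, fell by 0.27 on the log2 scale. Dhcr7 and Insig1 passed without each library in turn (adjusted p at most 0.0311 and 0.0289), and they were the 2 that passed without clone 2 replicate 2. The count was 3 without WT replicate 4 and 7 without WT replicate 3. Ebp (0.15) and Hsd17b7 (0.11) were the 2 members with positive differences, and neither was called.

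The promoter of Hmgcs1 is shown because it was the 1 promoter among 16 matched genes of this list that holds the sterol element TCACNCCAC. The 250 bases before its start, from the RefSeq promoter table (build GRCm38.p6, chr13:119690101-119690350, plus strand, outside the transcribed part), are printed 5′ to 3′ with the element in capitals, beginning 137 bases before the start. Of the 9538 promoters, 0.891 percent hold the element on either strand.
Hmgcs1: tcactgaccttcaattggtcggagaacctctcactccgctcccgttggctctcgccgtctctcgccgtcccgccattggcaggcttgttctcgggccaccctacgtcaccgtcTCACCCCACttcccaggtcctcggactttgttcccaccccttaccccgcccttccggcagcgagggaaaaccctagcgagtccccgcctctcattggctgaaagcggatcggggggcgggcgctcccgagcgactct

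Fewer fatty acid and glycolysis genes were called, and hypoxia genes were called less often than the 16.6 percent of all genes. Of 21 fatty acid genes 7 fell and 0 rose, with a median log2 difference of -0.12. The desaturase gene Scd1 was at 108, 112, 109 and 110 FPKM in WT and at 91.1 and 80.1 FPKM in clone 2 (log2 difference -0.36, limma adjusted p = 0.0138), and Acly, which supplies acetyl-CoA, at 191, 208, 198 and 199 FPKM against 169 and 161 FPKM (-0.27, adjusted p = 0.0154). Fasn, the fatty acid synthase gene, was not called (-0.07). Without WT replicate 4, 0 of the 7 passed (adjusted p = 0.0506 for Scd1), 2 passed without WT replicate 3 and 1 without clone 2 replicate 2. Glycolysis genes had negative differences in 25 of 25 cases, with a median of -0.27, but 5 fell (20.0 percent, near the 16.6 percent of all genes). Slc2a1, the main glucose transporter gene, was at 341, 367, 330 and 335 FPKM against 297 and 284 FPKM (-0.24, adjusted p = 0.023). Aldoc (-1.39), Slc2a3 (-0.64) and Pgk1 (-0.47) did not pass. The number called was 14 without clone 2 replicate 1, 3 without WT replicate 2, 2 without WT replicate 1, 1 without WT replicate 3 and 0 without WT replicate 4 or clone 2 replicate 2. Of 22 hypoxia response genes 3 fell (13.6 percent) and 0 rose, with a median log2 difference of -0.30, and the number called was 12 without clone 2 replicate 1, 1 without WT replicate 2 and 0 without any other library.

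Targets of p53 were lower as well. The transcription factor p53 responds to DNA damage and stress by switching on genes of cell cycle arrest and death. Of 25 tested targets 13 fell, 0 rose and 23 had negative differences, with a median log2 difference of -0.35. Cdkn1a, encoding the cell cycle inhibitor p21, was at 26.9, 41.7, 29.2 and 31.6 FPKM in WT and at 18.5 and 15.3 FPKM in clone 2 (-0.88, limma adjusted p = 0.0358). Phlda3, an inhibitor of AKT, was at 32.5, 51.1, 33.2 and 36.4 FPKM against 21.6 and 18.1 FPKM (-0.90, adjusted p = 0.0467). WT replicate 2 was well above the other WT libraries in both. Zmat3, an RNA binding target, was at 33.3, 36.9, 34.9 and 34.6 FPKM against 27.4 and 25.2 FPKM (-0.40, adjusted p = 0.0127). Trp53inp1, a stress gene, was at 51.7, 63.0, 52.8 and 55.1 FPKM against 24.4 and 20.7 FPKM (-1.27, adjusted p = 0.00286), and it lies in the stretch of chromosome 4 described further on. Mdm2 (-0.06), Bax (-0.03) and Ccng1 (-0.27), which are textbook targets, were not called. Without clone 2 replicate 2 the 1 that passed was Trp53inp1, and 2 passed without WT replicate 4, 3 without WT replicate 3 and 6 without clone 2 replicate 1.

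Genes of protein folding and quality control in the endoplasmic reticulum were higher, by small amounts. The list holds chaperones, which fold secreted and membrane proteins, with genes of the degradation of misfolded proteins (Herpud1, Syvn1) and the stress transcription factor gene Xbp1. Of 22 tested genes 12 rose, 0 fell and 21 had positive differences, with a median log2 difference of 0.16. Calr, encoding the calcium-binding chaperone calreticulin, was at 230, 224, 225 and 224 FPKM in WT and at 276 and 285 FPKM in clone 2 (0.31, limma adjusted p = 0.00356). Hspa5, encoding BiP, was at 250, 227, 235 and 244 FPKM against 282 and 289 FPKM (0.26, adjusted p = 0.0173). Creld2 was at 24.4, 22.8, 24.4 and 24.4 FPKM against 30.4 and 30.5 FPKM (0.33, adjusted p = 0.0117). The WT libraries were tightly grouped for these genes, and the gap to clone 2 exceeded their whole range. Calr passed in every leave-one-out fit and was the 1 member that passed without clone 2 replicate 2; 2 passed without WT replicate 4 and 4 without WT replicate 3. Heat shock genes, cytosolic and mitochondrial, rose in 5 of 15 cases and fell in 0 (33.3 percent called, beside 16.6 percent of all genes). Among them was Hspd1, a mitochondrial chaperonin gene (0.25, adjusted p = 0.0171). Of the 5, 0 passed without WT replicate 4 and 1 without WT replicate 3.

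**Figure D3:**
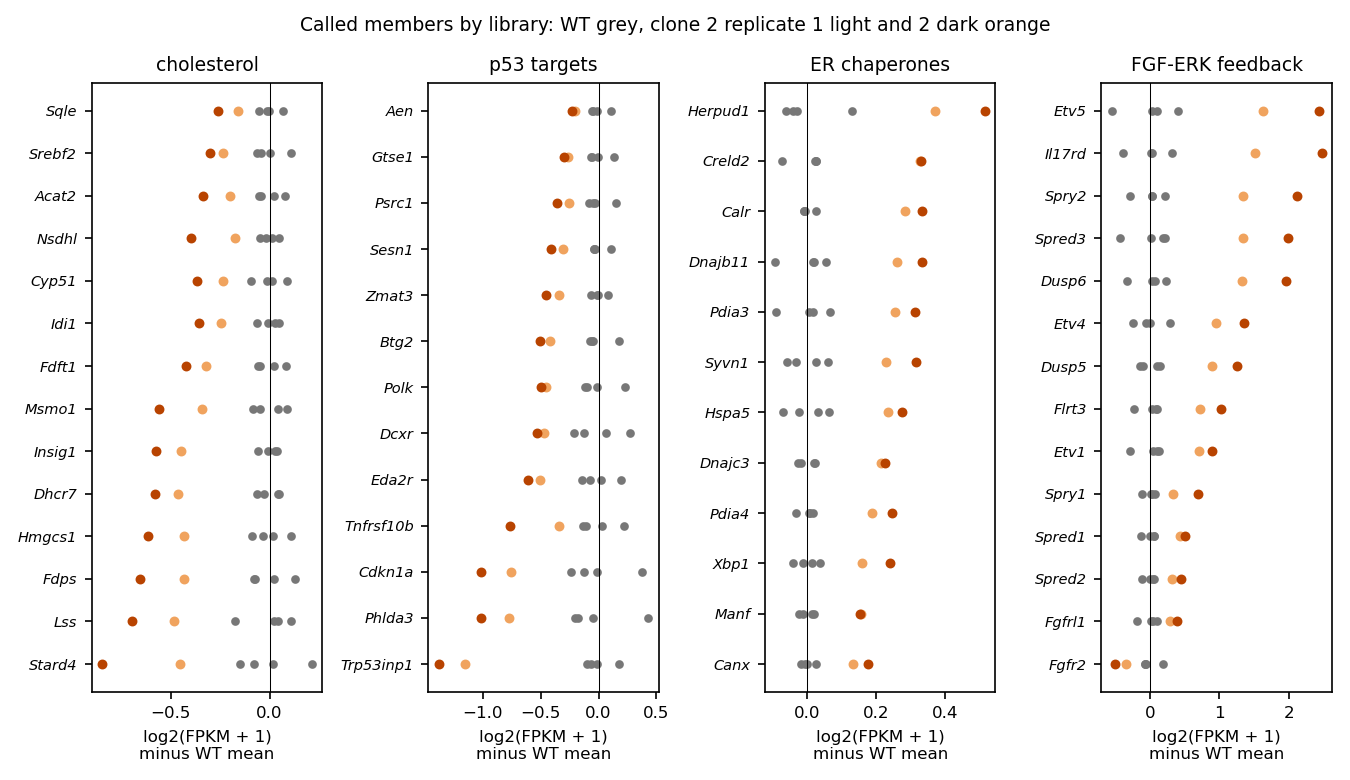
Called members of 4 gene lists (some cholesterol genes are not shown), each row a gene, plotted as log2(FPKM + 1) minus the WT mean (horizontal axis, scale differing between panels) for the 4 WT libraries (grey) and clone 2 replicates 1 (light orange) and 2 (dark orange). Replicate 2 lies farther from WT than replicate 1 in nearly every row, all cholesterol and p53 genes shown are to the left of WT, and all 12 endoplasmic reticulum genes and 13 of 14 FGF-ERK genes are to the right.

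Imprinted genes held several of the firmest changes. Imprinted genes are expressed from the chromosome of 1 parent. The list of them had a median log2 difference of -0.004, with 18 positive and 20 negative members. Of its tested members 39.5 percent were called, beside 16.6 percent of all genes. It also counts Dhcr7, which fell and is given above with the cholesterol genes. Of 38 tested, 11 rose and 4 fell, and 4 of the 15 called passed without clone 2 replicate 2, 7 without WT replicate 4 and 10 without WT replicate 3. Nnat, encoding neuronatin (chromosome 2, 157560078 to 157562522, plus strand, GRCm38), was at 47.4, 44.3, 45.8 and 47.1 FPKM in WT and at 159 and 171 FPKM in clone 2, a 3.57-fold higher mean (log2 difference 1.81, SE 0.04, limma adjusted p = 8.64e-06). Its level was also higher than WT in clone 1 (log2 difference 2.29, 8-library fit), which shares the WT controls. Blcap, whose gene contains Nnat on the opposite strand, was not called (-0.16).

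A cluster of paternally expressed genes on chromosome 7 rose together. The 5 neighbours Snrpn, Ndn, Magel2, Mkrn3 and Peg12, between 59982495 and 62464510 (GRCm38), were all called higher with the 6 libraries. Of these, Snrpn and Ndn were among the 77 genes that passed in the 12 fits. Magel2 (log2 difference 0.72, limma adjusted p = 0.0281), Mkrn3 (0.42, adjusted p = 0.0162) and Peg12 were not. Ndn, encoding the growth suppressor necdin, was at 52.9, 46.4, 53.4 and 52.4 FPKM in WT and at 86.9 and 92.2 FPKM in clone 2 (log2 difference 0.79, limma adjusted p = 0.00319). Snrpn was at 58.7, 63.1, 54.1 and 59.2 FPKM against 89.7 and 84.3 FPKM (0.56, adjusted p = 0.00922). Both passed without each library in turn. Peg12 was at 18.4, 13.8, 18.2 and 17.0 FPKM against 29.8 and 36.0 FPKM (0.93, adjusted p = 0.0146; 0.101 at most, failing without WT replicate 4 and clone 2 replicate 2). The maternally expressed neighbour Ube3a, at 28.3, 26.3, 28.1 and 27.1 FPKM against 28.4 and 26.4 FPKM, overlapped between the groups and was not called. Elsewhere Peg3, on the same chromosome, rose from 19.5, 14.9, 18.7 and 18.4 FPKM to 33.7 and 42.6 FPKM (1.05, adjusted p = 0.0117; 0.0683 without clone 2 replicate 2). Sgce, next to Peg10 on chromosome 6, fell from 19.1, 20.7, 18.2 and 19.6 FPKM to 13.4 and 12.8 FPKM (-0.54, adjusted p = 0.0092; 0.063 without clone 2 replicate 2). Peg10 itself was listed at 0 in clone 2 replicate 1 and stood at 60.1 FPKM in replicate 2, beside 83.5, 59.0, 75.4 and 73.6 FPKM in WT, and was not called.

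Cell surface and matrix genes changed in both directions. Of 38 collagen, laminin and matrix genes 5 rose and 10 fell (39.5 percent called, beside 16.6 percent of all genes). Thbs1, encoding thrombospondin, was at 89.5, 79.3, 90.1 and 78.7 FPKM in WT and at 59.7 and 55.4 FPKM in clone 2 (log2 difference -0.54, limma adjusted p = 0.0117; 0.0917 without clone 2 replicate 2). Lama1, a basement membrane laminin, was at 5.205, 5.29, 5.12 and 5.34 FPKM against 7.62 and 8.86 FPKM (0.56, adjusted p = 0.0114; 0.059 without clone 2 replicate 2). The clone 2 libraries lay outside the WT range in both, as in every called gene. Of 21 cadherin and protocadherin genes 7 rose and 1 fell (38.1 percent called). Of 44 axon guidance genes 9 rose and 6 fell (34.1 percent called). Efnb1, an ephrin ligand, went from 16.0, 12.8, 14.7 and 15.5 FPKM to 21.9 and 26.8 FPKM (0.69, adjusted p = 0.0171; 0.114 at most, failing in the fits that lacked WT replicate 3, WT replicate 4 and clone 2 replicate 2). Without clone 2 replicate 2, 0 genes of these 3 lists passed; of the genes called with all libraries, the matrix list kept 6 without WT replicate 3 and 4 without WT replicate 4, the guidance list 1 and 0, and the cadherin list 0 in both. Of the 15 guidance genes 6 passed without WT replicate 1 and 9 without WT replicate 2, and of the 8 cadherin genes 4 in either fit.

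Genes of proliferation and growth were called to different extents, beside 16.6 percent of all genes. Of 33 DNA replication genes 3 rose and 0 fell (9.09 percent called), and of 31 cell cycle genes 3 rose and 4 fell (22.6 percent). Of the 7 called cell cycle genes 2 passed without WT replicate 1 and 0 when WT replicate 3, or WT replicate 4, or clone 2 replicate 2 was left out; of the 3 replication genes 1 passed without WT replicate 3 or WT replicate 4 and 0 without clone 2 replicate 2. Ccnd1, encoding cyclin D1, was at 27.3, 18.3, 24.0 and 24.7 FPKM in WT and at 38.4 and 55.3 FPKM in clone 2 (log2 difference 0.95, limma adjusted p = 0.0419; up to 0.2, failing without WT replicate 1, 2, 3 or 4 or clone 2 replicate 2). Of 29 ribosome biogenesis genes 8 rose and 0 fell (27.6 percent), including Myc, at 11.4, 9.98, 9.58 and 10.4 FPKM against 14.4 and 16.8 FPKM (0.55, adjusted p = 0.0171), and Nop2 (0.41, adjusted p = 0.0114), a nucleolar methyltransferase gene. Of these 8, 0 passed without clone 2 replicate 2, 1 without WT replicate 4 and 3 without WT replicate 3. Of 17 immediate early genes 6 rose and 1 fell, and Ier2, at 29.6, 30.04, 29.5 and 29.0 FPKM against 37.5 and 42.0 FPKM (0.42, adjusted p = 0.0114), passed in every leave-one-out fit. It was the 1 of these 7 that passed without clone 2 replicate 2, with 2 passing without WT replicate 4 and 4 without WT replicate 3.

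**Figure D4:**
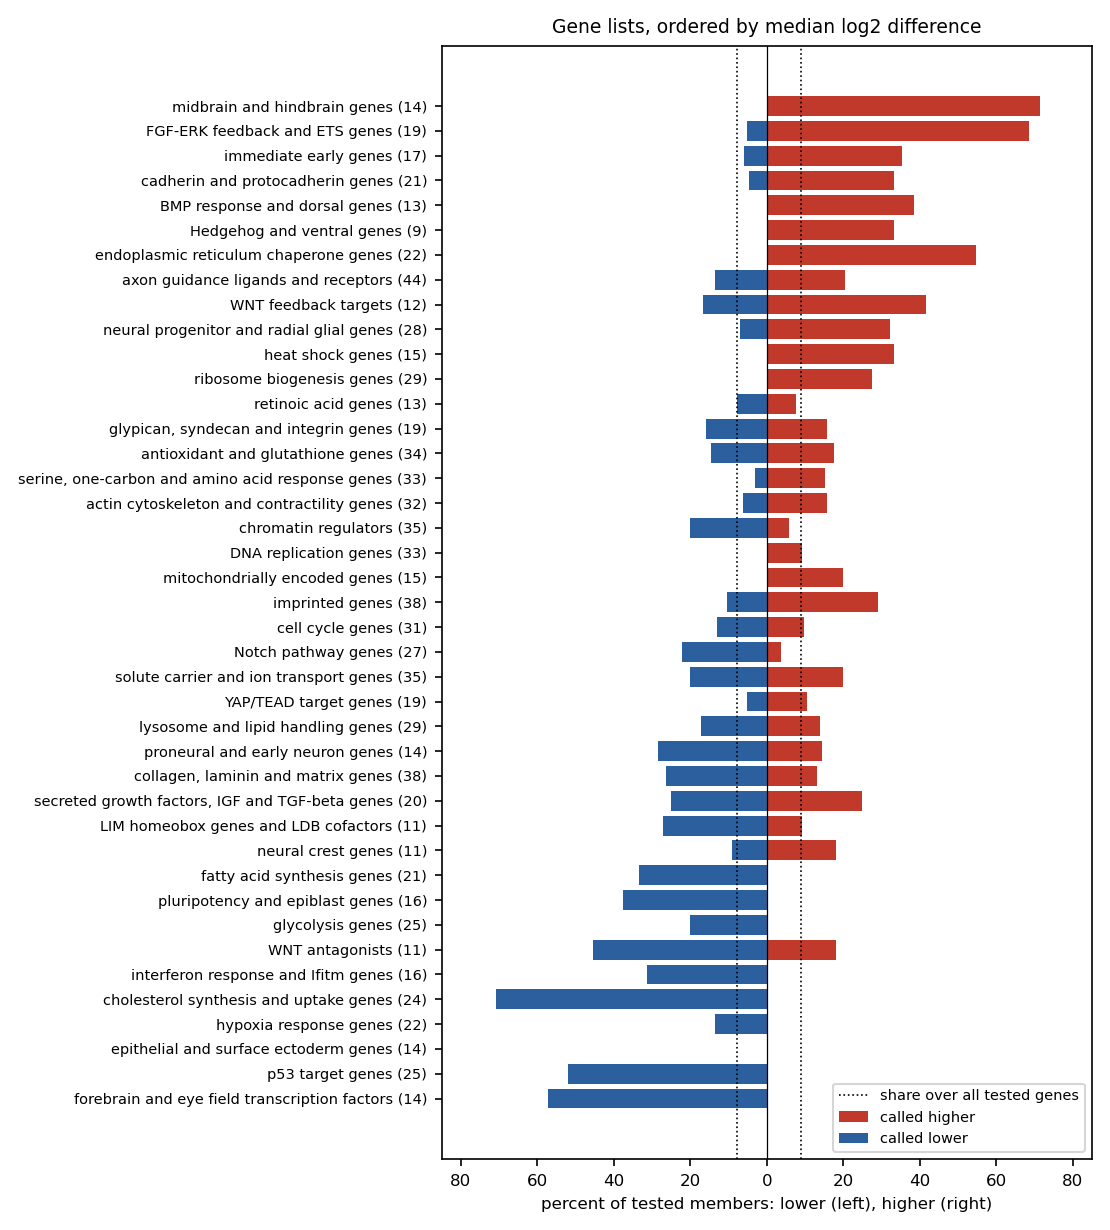
Percent of tested members called lower (blue, left) or higher (red, right) in clone 2 for gene lists with at least 9 tested members (number in brackets), ordered by median log2 difference; dotted lines mark the shares over all genes (7.8 percent lower, 8.84 percent higher). Midbrain and hindbrain genes are at the top, forebrain and eye field factors at the bottom, and cholesterol genes show the longest blue bar.

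A stretch of chromosome 4, chosen after its values had been seen, was lower in clone 2 along its length. From Rab2a to Epha7 (8535644 to 28967499, GRCm38), 39 of 46 tested protein-coding genes fell and 45 had negative differences. The median ratio of the clone 2 to the WT mean FPKM was 0.63, with quartiles of 0.572 and 0.662. Rab2a, a small GTPase gene at the proximal end, was at 49.0, 49.6, 49.7 and 49.99 FPKM in WT and at 32.5 and 31.6 FPKM in clone 2 (log2 difference -0.61, limma adjusted p = 0.000382). Mms22l, a replication fork repair gene near the far end, was at 24.8, 24.1, 24.5 and 24.4 FPKM against 13.7 and 13.8 FPKM (-0.78, adjusted p = 0.00024). Ccnc, encoding cyclin C, was at 13.9, 14.7, 13.7 and 14.6 FPKM against 7.65 and 7.34 FPKM (-0.84, adjusted p = 0.000901). For these 3 genes, which were among those named for the smallest adjusted p in the stretch, the 2 clone 2 libraries nearly coincided.

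Genes beyond either edge of the stretch were near WT levels. The 14 tested protein-coding genes before Rab2a had a median ratio of 1.04 with 0 called, and the first 20 after Epha7 had one of 1.01 with 1 higher and 1 lower. The other 722 protein-coding genes of chromosome 4 had a median ratio of 1.0. Chd7, a chromatin remodeller gene, stood at 25.9, 23.4, 25.3 and 24.0 FPKM in WT and at 15.7 and 16.1 FPKM in clone 2 (log2 difference -0.60, limma adjusted p = 0.00393). Pou3f2, a neural POU factor gene, was the 1 member with a positive difference (0.51) and was not called, with 2.19, 1.07, 1.87 and 1.79 FPKM against 2.00 and 3.90 FPKM. Nbn, a DNA break repair gene (-0.60, adjusted p = 0.00269), Rad54b (-0.77, adjusted p = 0.0185) and Ccne2 (-0.01, not called) also lie there. The number called was 31 to 40 without any library other than clone 2 replicate 2 and 17 without that one, where the 46 differences had a median of -0.57. In clone 1 the median log2 difference from the same WT libraries was 0.17.

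**Figure D5:**
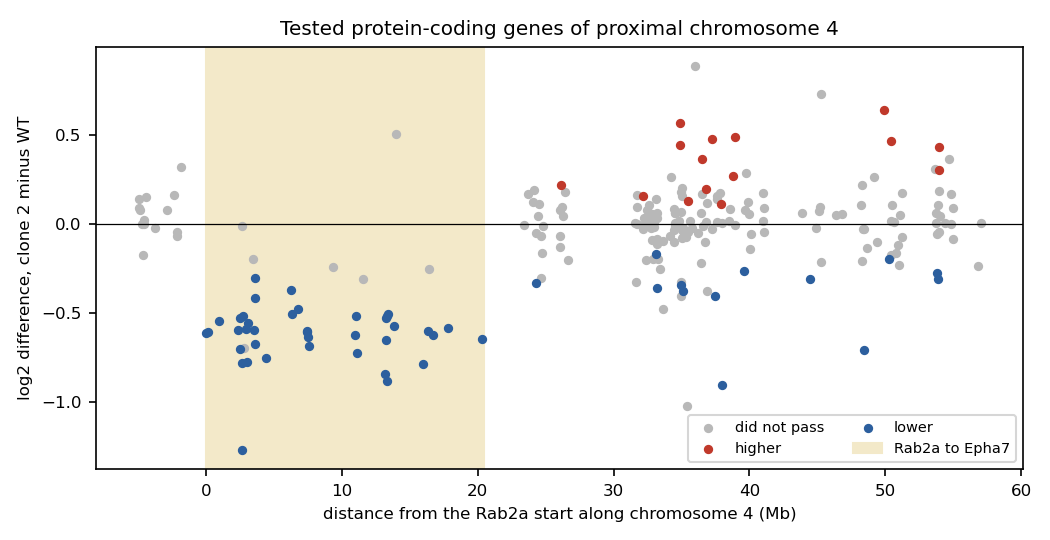
Log2 difference between clone 2 and WT (vertical axis) of tested protein-coding genes against distance from the Rab2a start along chromosome 4 (horizontal axis, Mb); the shaded part runs from Rab2a to Epha7 and blue points were called lower. Inside the shaded part 45 of 46 genes lie below 0, and on both sides the points return to 0.

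The 3 tested genes of the Y-linked list were close to 0 in clone 2. Eif2s3y, a translation factor gene, was at 23.1, 25.1, 24.8 and 24.0 FPKM in WT and at 0.141 and 0.184 FPKM in clone 2. Ddx3y, an RNA helicase gene, was at 5.24, 6.10, 5.85 and 6.18 FPKM against 0.0922 and 0.0871 FPKM. Uty, a histone demethylase family gene, was at 5.06, 5.63, 5.69 and 5.24 FPKM against 0.155 and 0.159 FPKM. All 3 were far below WT in both libraries (log2 differences -4.44, -2.65 and -2.47, limma adjusted p at most 2.27e-05), and they passed without each library in turn; they reached the level for testing only through WT. Of 12 tested genes that the annotation places on chromosome Y, pseudogenes and gene models included, 6 were lower, 2 higher and 4 not called, with a median log2 difference of -0.16. In the comparison of the clones in the 8-library fit, where 40.1 percent of all genes passed, the differences of clone 2 from clone 1 were -5.59, -3.63 and -3.55 on the log2 scale in that order.

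Some of the firmest changes lay outside all lists and were picked after the values were seen, from the 77 genes that passed in the 12 fits. Dab1, an adaptor of Reelin signalling in neuronal migration, was at 13.5, 12.7, 13.6 and 13.5 FPKM in WT and at 24.3 and 28.8 FPKM in clone 2 (log2 difference 0.94, limma adjusted p = 0.00269). Adamts3, a secreted protease gene, was at 2.07, 1.35, 2.03 and 1.76 FPKM against 5.42 and 8.57 FPKM (1.49, adjusted p = 0.0114). Cbln1, a synaptic organiser gene, was at 27.0, 28.4, 25.9 and 27.2 FPKM against 47.9 and 39.9 FPKM (0.67, adjusted p = 0.00929). Both clone 2 libraries lay above all WT libraries, as for every gene called higher, and in Cbln1 replicate 1 was the higher. Mfap2, a microfibril gene, rose 2.32 times (5.28 ± 0.621 to 12.3 ± 0.0109 FPKM).

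Among the firm decreases, Sall4, a zinc finger gene of pluripotent cells, was at 76.9, 82.7, 76.7 and 73.9 FPKM in WT and at 55.7 and 49.3 FPKM in clone 2 (log2 difference -0.55, limma adjusted p = 0.0093). Gsn, encoding the actin-severing protein gelsolin, was at 20.2, 24.3, 21.6 and 20.4 FPKM against 12.03 and 9.84 FPKM (-0.92, adjusted p = 0.00884). Nr6a1, an orphan nuclear receptor gene, was at 101, 105, 101 and 99.95 FPKM against 75.1 and 73.9 FPKM (-0.44, adjusted p = 0.00187). Ifitm1, an interferon-inducible membrane protein gene that belongs to the interferon list, was at 22.3, 25.6, 21.8 and 23.4 FPKM against 13.1 and 13.5 FPKM (-0.76, adjusted p = 0.00426). The 4 genes had both clone 2 libraries below all WT libraries, as did every gene called lower. Chst15, a chondroitin sulphotransferase gene, fell to 28.6 percent of WT, from 8.90 ± 1.18 to 2.54 ± 1.16 FPKM.

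Ktn1 had the lowest fitted log2 value of the called genes, and it is uncertain. Ktn1, encoding the membrane protein kinectin, was at 80.4, 85.4, 86.7 and 84.4 FPKM in WT and listed at 0 in both clone 2 libraries. In the authors' deposited table its mean reads were 9269 in WT and 8874 over all null libraries, a ratio of 0.957. It was at 84.9 and 72.8 FPKM in clone 1. A value listed at 0 can be a failed estimate, so no fold is given. The small RNA genes Mir8094, Mir1957b and Snora31 were also listed at 0 throughout 1 group, and no fold is given for them. The ratio of deposited mean reads, all null over WT, was 1.03 for Mir8094, 1.06 for Snora31 and 1.23 for Gm25776. Mir1957b had 0 mean reads in both groups. These pooled reads show no change that matches the values listed at 0, and the reason was not tested. Ktn1, Mir8094 and Gm25776 are nevertheless counted among the 77 genes. Of the genes tested, 371 were listed at 0 in at least 1 library.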

How the data were processed

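RNA libraries (TruSeq v2, per the labels' protocols) were analysed from 4 WT and 2 clone 2 samples, with 2 clone 1 samples where named. The authors deposited FPKM per library, mean FPKM, a signal of mean reads per group, a fold ratio and a p-value for all null against WT samples; their fold ratio and p-value were not used. The submitters' processing notes name FastQC, SAMtools, TopHat2, Cufflinks, DESeq2 and GRCm38, without roles. Library depth is unknown beyond the relative depths given, and columns were matched to a clone by name, not to a single sample title.

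Genes with a mean of at least 1 FPKM were tested with limma 3.58.1 (trend, robust; R 4.3.3) on log2(FPKM + 1), with Benjamini-Hochberg adjustment over 14430 genes and a threshold of 0.05. The method was tested on simulated data. Members and lists were chosen with earlier results of these data known. Named genes were Lhx5, 6 markers, called genes with the largest differences, up to 4 called members per list by adjusted p, Y-linked genes and 6 genes of the chromosome 4 stretch; other names were chosen after their values were seen. Alternatives changed the pseudocount, filter, scaling, limma options, libraries and replicate block. Some symbols occur more than once and are not reported. Results for some genes are not reported here.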

Additional observations from a re-analysis of the deposited data

Results flagged for a closer look

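The difference between the clones was tested for the named genes in the fit of all 8 libraries, where 40.1 percent of all genes passed. The genes given here passed against WT in both clones, in opposite directions, and the difference between the clones also passed in limma. The clones share the WT controls. The values are clone 2 minus clone 1 on the log2 scale. Clone 2 was higher for Zic1 (2.91), Ccn2 (2.89), Gbx2 (2.81), Dusp6 (2.53), Wnt1 (1.84), En1 (1.75), Efnb3 (1.66), Mest (1.64), Msx3 (1.47), Flrt3 (1.45), Efnb1 (1.39) and Sp5 (1.37). Smaller positive values were found for Celsr1 (1.11), Nkd1 (1.06), Tyms (0.82), Slc39a6 (0.82), Boc (0.78), Id3 (0.77), Axin2 (0.72), Gas1 (0.66), Marcks (0.62), Hsph1 (0.62) and Marcksl1 (0.57). Positive values were also found for Fen1 (0.57), Lamp2 (0.57), Crabp2 (0.50), Hspa5 (0.48), Hspd1 (0.48), Mdk (0.47), Calr (0.47), Slc25a4 (0.46), Cdk4 (0.43), Dnaja1 (0.43), Pdia4 (0.42) and Prdx2 (0.41). The smallest positive values were those of Sdc1 (0.40), Sod1 (0.39), Gsta4 (0.36) and Ncl (0.36). Clone 2 was lower for Eif2s3y (-5.59), Ddx3y (-3.63), Uty (-3.55), Trp53inp1 (-1.96), Cdkn1a (-1.91), Tap1 (-1.49), Pnisr (-1.32), Ccnc (-1.22), Gap43 (-1.18), Eda2r (-1.10), Btg2 (-1.03) and Ints8 (-1.01). Smaller negative values were found for Mms22l (-0.99), Dnmt3b (-0.92), Rab2a (-0.78), Zmat3 (-0.69), Mid1 (-0.68), Slc2a1 (-0.41) and Mif (-0.31).

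In some genes 1 WT library stood apart from the other 3 by most of the range of the 4 (the gap as a share of the range is given), past Dixon's critical value, which chance gives in about 1 of 20 groups. The highest WT library stood apart for Snora43 (1.0), Hesx1 (0.844), Foxd4 (0.831), Gap43 (0.902), Calr (0.928), Btg2 (0.895) and Itgb5 (0.916). The lowest WT library stood apart for Wnt1 (0.854), Axin2 (0.859), Gli3 (0.834), Scd2 (0.841), Creld2 (0.959), Fen1 (0.834), Ndn (0.866) and Slc39a6 (0.864).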

How the results depend on the processing

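The number of called genes depended on single libraries. Since the libraries of every called gene are separate, leaving out 1 library cannot turn its direction, and kept directions say nothing about stability. Leaving out 1 library at a time gave 70 to 1053 higher and 60 to 1032 lower genes; the lowest counts were without clone 2 replicate 2. Without a filter on low values 619 genes were higher and 476 lower, with more genes in the adjustment. With a pseudocount of 0.1 the counts were 1324 and 1206, with 5 they were 1297 and 1087, and with rescaled libraries 1177 and 1259. The WT and clone 2 columns share replicate numbers, which are not stated to pair the samples. With a replicate block 1 gene was higher and 6 lower, and the result for Lhx5, clone 2 against WT, was a log2 difference of -2.83 with a limma adjusted p of 0.168; this fit leaves fewer degrees of freedom. Of 176 named called genes, 37 passed without clone 2 replicate 2, 69 without WT replicate 4 and 90 without WT replicate 3.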

Other observations

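Pluripotency and epiblast genes were lower in part. Of 16 tested 6 fell and 0 rose, against 16.6 percent called over all genes. Nanog, a core pluripotency factor, was at 4.05, 5.57, 3.42 and 4.51 FPKM in WT and at 2.31 and 1.73 FPKM in clone 2 (log2 difference -0.83, limma adjusted p = 0.0244; 0.178 at most, failing without WT replicate 4 and clone 2 replicate 2). Pou5f1, encoding OCT4, had a log2 difference of -0.78 and was not called. Of the 6, 0 passed without WT replicate 4 or clone 2 replicate 2, and 3 without WT replicate 3.

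Of 16 interferon response and Ifitm genes 5 fell and 0 rose (31.2 percent called). Of the antioxidant genes 32.4 percent were called, and of all genes 16.6 percent. Ifitm2 was at 237, 269, 230 and 236 FPKM in WT and at 174 and 163 FPKM in clone 2 (-0.52, limma adjusted p = 0.0115; 0.0836 without clone 2 replicate 2). Of 34 antioxidant genes 6 rose and 5 fell; Sod1, a superoxide dismutase gene, was at 297, 293, 294 and 290 FPKM against 342 and 352 FPKM (0.24, adjusted p = 0.00695) and passed in every leave-one-out fit. Of the 11 called antioxidant genes 4 passed without WT replicate 3 or WT replicate 4 and 1 without clone 2 replicate 2, and of the 5 interferon genes the counts were 2 and 1.

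Among 49 groups formed from gene names after the values were seen, the 4 tested Irx genes all rose, with 0 passing without clone 2 replicate 2. Of 358 Zfp genes 55 rose and 10 fell, and 0 passed without clone 2 replicate 2. The share of Zfp genes called was 18.2 percent, near the 16.6 percent over all genes, and their median log2 difference was 0.05. Of 81 cytosolic ribosomal protein genes 1 rose and 1 fell (2.47 percent called).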
